A study of Mus musculus with 9 samples.

Results

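The comparison was between the ileal stem cell niche of SAMP/YitFc (SAMP) mice at 25 weeks of age, which had Crohn's disease-like ileitis, and that of SAMP mice at 5 weeks, before inflammation. It used 6 of the 9 RNA libraries of the series, 3 from each age, chosen by the strain and age in the labels. All of these mice were labelled wild type and none carried a transgene or received a treatment per the labels. The niche at the base of ileal crypts was cut out by laser microdissection, so each library is a small bulk sample of stem cells, Paneth cells and their neighbours. The other 3 libraries came from 25-week-old wild type mice of AKR, a strain without ileitis, and their levels are given for description only. Within SAMP, disease and age changed together, and the 2 cannot be told apart in this comparison. In a bulk sample, a change in the number of cells of a type and a change in RNA per cell cannot be told apart either.

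Crypt-base stem cells divide between Paneth cells, which secrete lysozyme and alpha-defensins, and their progeny become absorptive enterocytes or secretory goblet, tuft and enteroendocrine cells. Goblet cells make the mucus layer, and the epithelium adds lectins of the Reg3 family that bind bacteria close to it. Tuft cells sense luminal signals, release interleukin 25 and act with innate lymphoid cells that make interleukin 13, a type 2 cytokine that acts on crypt progenitors in the mouse gut.

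Levels were FPKM as deposited, that is, fragments scaled to transcript length and to the size of the library. Fold changes are differences in mean log2(FPKM + 1), 25 weeks minus 5 weeks, with the standard error of the fit, n = 3 a group, and a value with ± in brackets is such a fold change. Levels are listed in the order of replicates 1, 2 and 3. Low values placed the depth at about 7140000 to 10260000 reads a library, as an estimate. Paneth and stem cell markers were present in all 6 libraries. Of the pancreatic acinar markers set for this check, Prss2 and Amy2a1 were not in the table. The 3 that were, Cpa1, Cpb1 and Ctrb1, summed to at most 0.5 FPKM, and 2 of them were 0 in all 6 libraries. One library stood apart: 25-week replicate 3 had 176.75 FPKM of Xist, a transcript made from the inactive X, against 1.32 or less in the other 5, and its Y-linked genes were at or below 0.14 FPKM. The labels give no sex, so for each called gene named below it is said where leaving out that library ended the call. On the first principal component (48.7% of the variance) the 5-week libraries lay between −37.3 and −19.6, and the 25-week libraries at 0.35, 54.3 and 26.4 for replicates 1, 2 and 3.

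Of 11690 genes tested, 169 (1.45%) had an adjusted p under 0.05 by limma, of which 104 (0.89%) rose and 65 (0.556%) fell. Counts of called genes in the groups below are to be read against these shares. In each of the 169 genes, the 3 libraries of 25 weeks and the 3 of 5 weeks did not overlap, as in 20.4% of all tested genes (8.08% higher and 12.3% lower at 25 weeks). The median log2 fold change of all genes was −0.12. A few abundant rows held much of the signal, from 49.7% to 71.8% of the summed FPKM of a library in the 25 highest rows. Rescaling without those 25 rows moved the median of all genes to 0.14 and gave 402 calls, of which 81.6% were higher against 61.5% as deposited, and rescaling without ribosomal RNA and defensin rows gave 259 calls, 74.1% higher. The scale thus moved small differences of broad groups, whereas none of the 169 genes changed sign under the rescalings. The other settings among the 19 alternatives could not have changed a sign, because the ages did not overlap in these genes. Leaving out 25-week replicate 3 gave 68 calls, of which 66 were among the 169. Testing all rows without a filter on low values kept 57 of the 169 calls, and for 44 genes no alternative ended the call. Those genes are described below as stable. Each other called gene below also lost its call without the filter, beside the settings given with it. A gene averaging under 1 FPKM at 1 age passed the filter only through the other age, which fixed the direction of its difference in mean FPKM. Among genes with levels given below, this held for Gsdmc, Cfi, Fabp1, Pck1, Il13, Alox5 and Ltc4s, low at 5 weeks. It also held for Lcn2, Serpina10, Ifit1bl1 and Hbb-bs, low at 25 weeks. Stable calls were also made without the filter.

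**Figure D1:**
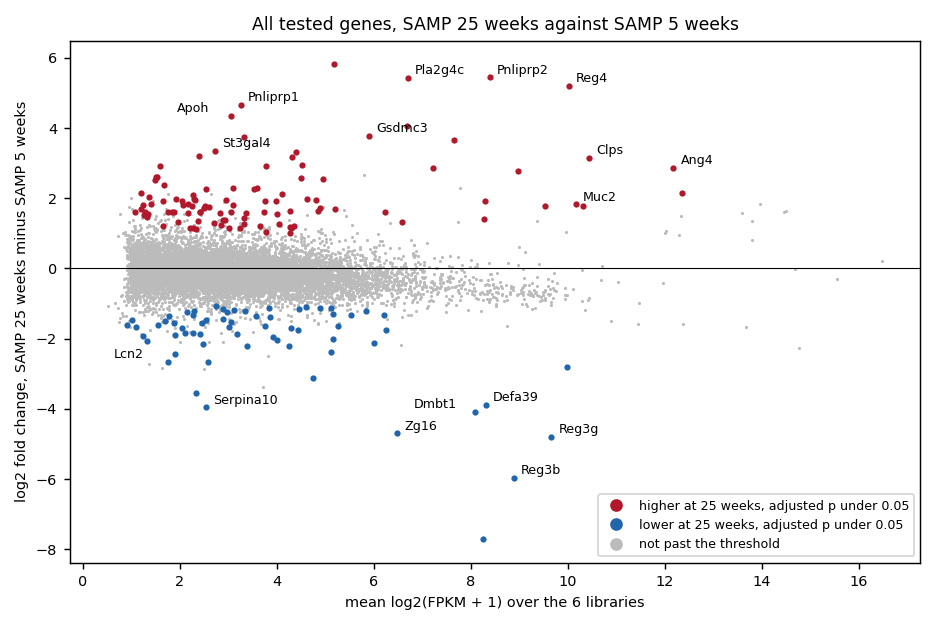
Each of the 11690 tested genes by its mean log2(FPKM + 1) over the 6 SAMP libraries (x axis) and its log2 fold change, 25 weeks minus 5 weeks (y axis). The 104 genes that rose are red and the 65 that fell are blue, with Pnliprp2 and Reg4 near the top and Reg3b and Reg3g near the bottom.

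The pancreatic lipase-related genes and their cofactor rose, and Pnliprp2 had the largest rise among genes with official symbols. Pnliprp2, a lipase related to pancreatic lipase, was at 91, 52.5 and 25.8 FPKM in the 5-week libraries and at 2084, 2677 and 1941 FPKM at 25 weeks. Its log2 fold change was 5.44 ± 0.41 (adjusted p = 0.00019), and the lowest 25-week library lay far above the highest 5-week library. Its relative Pnliprp1 went from 2.46, 0.46 and 0.37 FPKM to 45.9, 50.6 and 46 FPKM, a log2 fold change of 4.67 ± 0.33 (adjusted p = 0.000149). Colipase, Clps, the cofactor that anchors pancreatic lipase to fat droplets, had 524, 500.5 and 395 FPKM at 5 weeks and 3710.3, 5458 and 3555 FPKM at 25 weeks. Clps rose by 3.14 ± 0.32 on the log2 scale (adjusted p = 0.000806). All 3 genes were stable. The AKR libraries had 100.2, 54.4 and 128 FPKM of Pnliprp2 and 351, 219 and 504 FPKM of Clps, within or near the range of the 5-week SAMP libraries. The listed acinar genes were low or not in the table: of 15 acinar markers listed, 8 were in the table, none passed the filter on low values, and their summed level was between 0.45 and 1.27 FPKM in the 6 libraries. Cela1, a pancreatic-type elastase that is not on that list, did rise and is described in the last section.

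Pla2g4c, a cytosolic phospholipase A2 that releases fatty acids from membrane lipids, rose as well. It had 51, 7 and 8.5 FPKM at 5 weeks and 1169.9, 489 and 555 FPKM at 25 weeks, and the AKR libraries had 6.66, 8.56 and 5.46 FPKM. The 5-week replicate 1 was the highest of its group but still lay below all 25-week libraries, and the log2 fold change was 5.43 ± 0.62 (adjusted p = 0.00173, stable). The other phospholipases A2 did not pass the test. Pla2g2a, the secreted Paneth cell enzyme, was at 12084, 9909 and 10647 FPKM and then 16634, 24824 and 16283 FPKM (0.80 ± 0.43, adjusted p = 0.39), and Pla2g5 gave −1.24 ± 0.28, adjusted p = 0.0604. Over the 11 tested lipases and phospholipases A2, 4 rose, none fell, and the median log2 fold change was 0.80.

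The gasdermin C genes, which encode pore-forming proteins opened by proteolytic cleavage, rose together. Gsdmc went from 1.93, 0.32 and 0.34 FPKM to 21.3, 11.2 and 14.3 FPKM, a log2 fold change of 3.21 ± 0.35 (adjusted p = 0.00119, stable). Gsdmc2 had 173, 23.3 and 42.6 FPKM at 5 weeks and 1204, 475 and 630.4 FPKM at 25 weeks (3.65 ± 0.62, adjusted p = 0.0177). Gsdmc3 had 44.1, 7.09 and 10.7 FPKM and then 366, 152 and 194 FPKM (3.78 ± 0.56, adjusted p = 0.0094). For Gsdmc4 the levels were 89.1, 10.2 and 15.3 FPKM and then 918, 218 and 372 FPKM (4.05 ± 0.71, adjusted p = 0.0215). In each of Gsdmc2, Gsdmc3 and Gsdmc4 the order of libraries was the same, with replicate 1 highest at both ages, and 5-week replicate 1 several-fold above the other 5-week libraries. The call of Gsdmc4 was lost without 5-week replicate 2 or 3 or 25-week replicate 3 (adjusted p from 0.0637 to 0.101), that of Gsdmc2 without 5-week replicate 3 or 25-week replicate 3 (adjusted p from 0.0733 to 0.0867) and that of Gsdmc3 without 5-week replicate 3 (adjusted p = 0.0536). These 3 genes are near-identical neighbours on chromosome 15, and how the counting divided reads between them is not given in the sources used here, so their separate levels are uncertain. In the AKR libraries Gsdmc2 was at 6.99, 7.84 and 6.37 FPKM.

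The other gasdermins moved differently. Gsdme fell from 17, 10.9 and 13.1 FPKM to 5.41, 1.62 and 4.61 FPKM (−1.67 ± 0.33, adjusted p = 0.0402), a call lost without 5-week replicate 1, 2 or 3 or 25-week replicate 3, or with a pseudocount of 0.1 (adjusted p from 0.0608 to 0.131). Gsdmd, the gasdermin cleaved by inflammatory caspases, was at 15.8, 11.4 and 8.51 FPKM and then 7.34, 4.92 and 8.32 FPKM and did not pass the test (−0.70 ± 0.27, adjusted p = 0.261). Casp4, the caspase that senses cytosolic lipopolysaccharide and cleaves gasdermin D, fell from 51.6, 30.6 and 36.5 FPKM to 14.1, 8.18 and 11.1 FPKM (−1.74 ± 0.27, adjusted p = 0.0111), and the call was lost without 5-week replicate 3 or 25-week replicate 3 (adjusted p from 0.0536 to 0.0598). Casp4 was the 1 gene of 36 tested cell death genes that passed, and the median of those genes was −0.34. Pycard, the inflammasome adaptor, gave −1.55 ± 0.46, adjusted p = 0.146, and Casp1 −1.03 ± 0.33, adjusted p = 0.182.

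**Figure D2:**
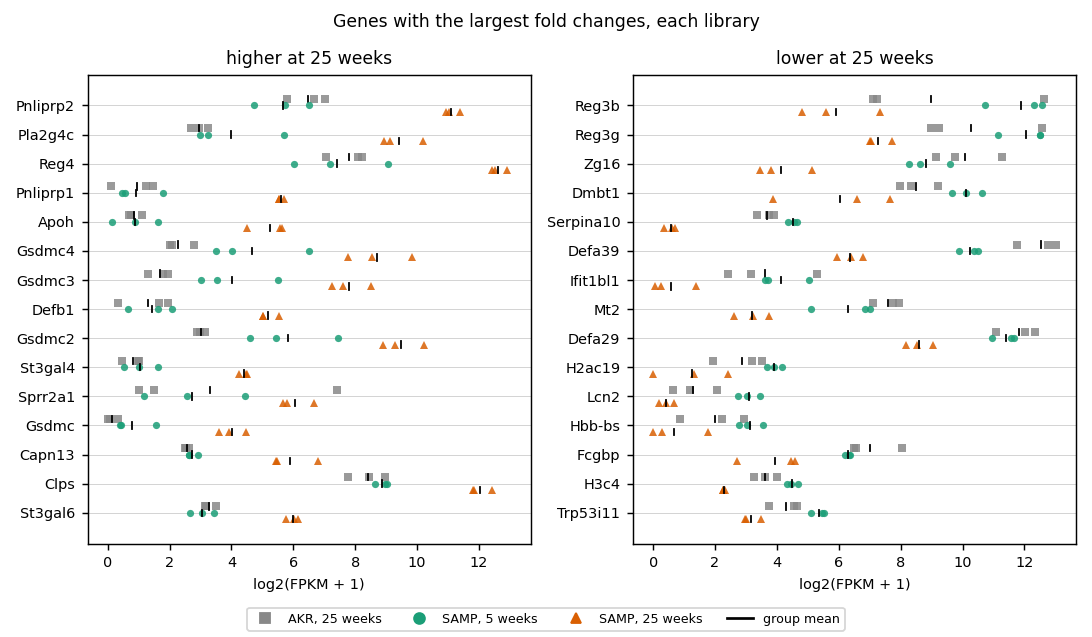
Levels as log2(FPKM + 1) (x axis) in each library for the 15 genes with the largest rise and the 15 with the largest fall among called genes with official symbols. Triangles (SAMP, 25 weeks) and circles (SAMP, 5 weeks) do not overlap in any gene, squares are AKR at 25 weeks, and black ticks are group means.

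The Reg lectins, small secreted C-type lectins, split in both directions. Reg3b was at 6099.7, 1703 and 5106 FPKM in the 5-week libraries, among the higher levels of all genes, and at 159, 27.3 and 47.2 FPKM at 25 weeks. It fell by 5.96 on the log2 scale, with an SE of 0.63 (adjusted p = 0.00104). Reg3g, which binds the peptidoglycan of Gram-positive bacteria, was at 5826, 2264 and 5857 FPKM and then 211, 132 and 128 FPKM. Its log2 fold change was −4.79 ± 0.41 (adjusted p = 0.00034). Reg4, a Reg lectin of intestinal secretory cells, was at 532, 144 and 63.4 FPKM at 5 weeks and 5911, 7720.3 and 5491 FPKM at 25 weeks. Reg4 rose by 5.21 ± 0.62 on the log2 scale (adjusted p = 0.00238), and was the most abundant Reg transcript at 25 weeks, as Reg3b or Reg3g was at 5 weeks. All 3 calls were stable. The AKR libraries were not uniform, with 151, 6319 and 136 FPKM of Reg3b, and the high AKR library, replicate 2, also had 1596 FPKM of summed villus enterocyte markers against 20.06 and 9.38 in the others. Reg3a (−1.16 ± 0.46, adjusted p = 0.274) and Reg1 (0.09 ± 0.59, adjusted p = 0.954) did not pass the test.

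The promoters of these 3 genes are shown because Reg3b and Reg3g fell and Reg4 rose, each by a large factor. The sequences are from RefSeq on GRCm38.p6, from 250 bases before to 50 after the start site, on the gene's own strand. Capitals mark TATAAA on that strand and TTCNNNGAA, a palindrome of the kind bound by STAT factors. Reg3b lies on the plus strand at chr6:78370635-78370934, Reg3g on the minus strand at chr6:78468825-78469124 and Reg4 on the plus strand at chr3:98221906-98222205.
Reg3b: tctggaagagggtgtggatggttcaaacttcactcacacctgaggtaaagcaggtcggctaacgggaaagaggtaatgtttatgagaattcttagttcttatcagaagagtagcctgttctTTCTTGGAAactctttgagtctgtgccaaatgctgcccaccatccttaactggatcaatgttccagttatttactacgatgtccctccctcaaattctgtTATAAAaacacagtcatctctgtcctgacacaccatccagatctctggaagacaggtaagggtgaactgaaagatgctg
Reg3g: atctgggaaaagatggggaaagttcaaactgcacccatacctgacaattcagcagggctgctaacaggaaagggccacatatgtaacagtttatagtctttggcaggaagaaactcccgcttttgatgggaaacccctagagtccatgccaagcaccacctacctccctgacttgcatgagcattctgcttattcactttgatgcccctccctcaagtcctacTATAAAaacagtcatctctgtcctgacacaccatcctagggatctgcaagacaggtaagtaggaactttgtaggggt
Reg4: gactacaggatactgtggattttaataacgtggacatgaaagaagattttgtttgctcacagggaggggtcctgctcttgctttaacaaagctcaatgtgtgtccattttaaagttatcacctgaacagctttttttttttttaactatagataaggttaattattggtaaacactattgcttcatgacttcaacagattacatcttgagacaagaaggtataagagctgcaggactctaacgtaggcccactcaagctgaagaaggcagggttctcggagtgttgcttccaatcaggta
The promoters of Reg3b and Reg3g, which are neighbours on chromosome 6, had the same base at 210 of 294 aligned positions (71.4%). Reg4 matched Reg3b at 165 of 251 aligned positions (65.7%) and Reg3g at 158 of 254 (62.2%). Positions opposite a gap were not counted. Identity between unrelated promoters was not measured, so these shares have no baseline. TATAAA began 29 bases before the start site in Reg3b and 27 bases before it in Reg3g, and Reg3g had another match on the opposite strand. Reg4 had none in this window. TTCNNNGAA occurred once in Reg3b and in neither of the other two. Searched on both strands of 32851 mouse promoters of the same length, TATAAA was in 13.6% and TTCNNNGAA in 8.3%. A match describes letters only and says nothing of binding.

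Other epithelial defence genes fell with Reg3b and Reg3g. Lcn2, lipocalin 2, which captures bacterial siderophores, was at 10.01, 5.74 and 7.2 FPKM at 5 weeks and 0.58, 0.34 and 0.15 FPKM at 25 weeks (−2.66 ± 0.27, adjusted p = 0.000806, stable). Dmbt1, a secreted scavenger receptor that agglutinates bacteria, went from 1098, 807 and 1569.9 FPKM to 201, 13.6 and 95.6 FPKM (−4.08 ± 0.76, adjusted p = 0.0266). Nos2, the inducible nitric oxide synthase, went from 7.87, 3.72 and 7.83 FPKM to 0.41, 0.92 and 1.67 FPKM (−1.89 ± 0.33, adjusted p = 0.0211). The call of Dmbt1 was lost without 5-week replicate 1, 2 or 3 or 25-week replicate 3 (adjusted p from 0.0506 to 0.114), and that of Nos2 without 5-week replicate 1 or 3 (adjusted p from 0.0688 to 0.0958). Tlr4, the lipopolysaccharide receptor, rose from 1.47, 1.08 and 0.75 FPKM to 3.79, 4.26 and 3.46 FPKM (1.21 ± 0.25, adjusted p = 0.0414), but its call was lost without 5-week replicate 1, 2 or 3 or 25-week replicate 1, 2 or 3, or with a pseudocount of 0.1 (adjusted p from 0.0503 to 0.146). Thus 1 of 25 tested defence genes rose and 3 fell, with a median of −0.78. Pigr, the receptor that carries IgA into the lumen, was at 391, 432 and 420.2 FPKM and then 597, 369 and 451 FPKM (0.16 ± 0.28, adjusted p = 0.819). Among 13 tested chemokines, only Ccl28, which attracts IgA plasma cells, passed the test: it fell from 37.4, 20.1 and 31.6 FPKM to 9.94, 3.96 and 7.49 FPKM (−1.95 ± 0.33, adjusted p = 0.0165), a call lost without 5-week replicate 1 or 3 or 25-week replicate 3 (adjusted p from 0.0539 to 0.0806).

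Goblet cell genes also split, with the mucin Muc2 rising and the mucus proteins Zg16 and Fcgbp falling. Of 23 tested goblet genes 8 rose, 2 fell, and the median log2 fold change was 0.94. Of all tested genes, 0.89% rose and 0.556% fell. Muc2, the gel-forming mucin, rose from 779, 517 and 569 FPKM to 2406, 2181 and 1938 FPKM (1.82 ± 0.31, adjusted p = 0.0165). Clca1, a mucus-processing metalloprotease, rose from 381, 102 and 187 FPKM to 2308, 812 and 1230.2 FPKM (2.76 ± 0.50, adjusted p = 0.0241). Spink4, a secreted Kazal-type peptide of goblet cells, rose from 3936, 1825 and 2137 FPKM to 10631, 14335 and 8933 FPKM (2.16 ± 0.42, adjusted p = 0.0361). In all 3, every 25-week library exceeded every 5-week library, as in each of the 104 called genes that rose. Capn9, a calpain protease of the digestive tract, rose from 3.3, 3.43 and 2.22 FPKM to 18.3, 13.8 and 11.5 FPKM (1.95 ± 0.24, adjusted p = 0.00318, stable). Calls were lost for Muc2 without 5-week replicate 2 or 3 or 25-week replicate 3 (adjusted p from 0.0799 to 0.129), for Clca1 without 5-week replicate 2 or 3 or 25-week replicate 3 (adjusted p from 0.0961 to 0.108) and for Spink4 without 5-week replicate 2 or 3 or 25-week replicate 2 or 3 (adjusted p from 0.0561 to 0.192). Spdef, the transcription factor of goblet and Paneth cell maturation, rose from 23, 9.01 and 11.4 FPKM to 55.9, 55.6 and 52.5 FPKM (1.95 ± 0.31, adjusted p = 0.0116), and its call was lost without 5-week replicate 2 or 3 or 25-week replicate 3 (adjusted p from 0.0506 to 0.0757). The number of called goblet genes was 17 without 25-week replicate 1, 3 without 5-week replicate 2 or 3, and 2, Capn9 and Zg16, without 25-week replicate 3.

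Zg16, a goblet cell lectin that binds Gram-positive bacteria, went the other way. It was at 780.0, 307 and 391 FPKM at 5 weeks and 34.5, 12.9 and 9.96 FPKM at 25 weeks, a log2 fold change of −4.70 ± 0.46 (adjusted p = 0.000663, stable). The AKR libraries had 869.9, 2497 and 569 FPKM, all above the 25-week SAMP libraries. Fcgbp, a mucus protein that binds to MUC2, fell from 79.3, 73.1 and 80.5 FPKM to 23.2, 5.59 and 21 FPKM (−2.37 ± 0.43, adjusted p = 0.0233), a call lost without 5-week replicate 1, 2 or 3 or 25-week replicate 3 (adjusted p from 0.0559 to 0.0958). Tff3, the trefoil peptide secreted with mucin, was at 954, 620.0 and 730.0 FPKM and then 382, 111 and 341 FPKM without passing the test (−1.63 ± 0.44, adjusted p = 0.119), and Agr2, the disulphide isomerase of mucin folding, gave 0.07 ± 0.40, adjusted p = 0.952.

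The enzymes that finish mucin sugars changed in a few members. St3gal4, which adds sialic acid in alpha-2,3 linkage to galactose, rose from 2.06, 1.03 and 0.44 FPKM to 17.9, 21.2 and 21.6 FPKM. Its log2 fold change was 3.35 ± 0.28 (adjusted p = 0.000336). St3gal6, with a related activity, rose from 9.74, 7.3 and 5.33 FPKM to 70.6, 64.8 and 53.8 FPKM (2.95 ± 0.25, adjusted p = 0.000336). St3gal1, which acts on the core O-glycan, fell from 11.9, 11.6 and 9.19 FPKM to 1.45, 1.96 and 1.53 FPKM (−2.17 ± 0.22, adjusted p = 0.000806). All 3 sialyltransferases were stable, so that the family moved in opposite directions within the same libraries. Of 33 tested glycosylation genes, St3gal4, St3gal6 and Galnt5, which starts O-glycans, rose and St3gal1 fell. Galnt5 gave 1.05 ± 0.21, adjusted p = 0.0415, a call lost without 5-week replicate 1, 2 or 3 or 25-week replicate 2 or 3 (adjusted p from 0.0883 to 0.182). The median was −0.03, and it changed sign with the scale, from −0.08 to 0.25 under the rescalings.

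Tuft cell genes were higher at 25 weeks, from low levels. Of 21 tested, 8 rose and none fell, against 0.89% and 0.556% of all tested genes. All 21 had a fold change above 0, and the median was 1.23. Over the rescalings that median was between 1.27 and 1.49. Bmx, among the 8 called, and Alox5, Ltc4s, Hpgds and Gng13 averaged between 0.5 and 0.96 FPKM at 5 weeks. They passed the filter on low values only through their 25-week levels, so a rise was their only possible direction. Bmx gave 1.54 ± 0.26, adjusted p = 0.0162. Its call ended under 4 of 18 alternatives, among them leaving out 25-week replicate 3. Trpm5, the cation channel of taste transduction, rose from 2.37, 0.75 and 1.31 FPKM to 5.9, 9.11 and 7.86 FPKM (1.83 ± 0.29, adjusted p = 0.0111). Pou2f3, the transcription factor that specifies tuft cells, rose from 3.18, 3.28 and 4.79 FPKM to 9.87, 9.48 and 10.7 FPKM (1.23 ± 0.22, adjusted p = 0.0233). Il17rb, the interleukin 25 receptor subunit, rose from 1.28, 0.6 and 1.56 FPKM to 3.41, 8.5 and 5.44 FPKM (1.62 ± 0.32, adjusted p = 0.0385). Sh2d7 rose from 1.11, 1.03 and 1.63 FPKM to 8.28, 6.31 and 6.15 FPKM (1.81 ± 0.24, adjusted p = 0.00446) and was the 1 stable call of the group. Calls were lost for Trpm5 without 5-week replicate 3 or 25-week replicate 3 (adjusted p from 0.0536 to 0.0604), for Pou2f3 without 5-week replicate 1 or 2 or 25-week replicate 3, or with all 9 libraries in the fit (adjusted p from 0.058 to 0.124) and for Il17rb without 5-week replicate 1, 2 or 3 or 25-week replicate 2 or 3 (adjusted p from 0.073 to 0.135). Avil, an actin-binding protein of tuft cells, gave 1.60 ± 0.34, adjusted p = 0.0486 and was lost without 5-week replicate 1 or 2 or 25-week replicate 1, 2 or 3, with a pseudocount of 0.1 or after rescaling to TPM (adjusted p from 0.0537 to 0.162). Alox5ap, which presents arachidonic acid for leukotriene synthesis, rose from 3.32, 4.28 and 3.7 FPKM to 14.5, 9.83 and 10.7 FPKM (1.40 ± 0.23, adjusted p = 0.0131), a call lost without 5-week replicate 3 or 25-week replicate 3 (adjusted p from 0.0589 to 0.0719). Dclk1, the kinase used to stain tuft cells, was at 2.91, 0.92 and 0.98 FPKM and then 4.48, 5.93 and 4.07 FPKM and did not pass the test (1.23 ± 0.31, adjusted p = 0.0913). The 5 tuft markers used to check the tissue summed to between 7.87 and 16.1 FPKM at 5 weeks and between 35.6 and 37.2 FPKM at 25 weeks. Without 25-week replicate 3, 1 tuft gene was called.

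Genes of type 2 immunity were mostly too low to test: 13 of the 29 in the table passed the filter. Kit, the receptor of stem cell factor on mast cells and some epithelial cells, rose from 18.4, 15.3 and 12.8 FPKM to 48.8, 64.4 and 47.2 FPKM (1.72 ± 0.24, adjusted p = 0.00554, stable). The mast cell markers checked beside it summed to between 0.09 and 2.18 FPKM at 5 weeks and between 0.7 and 2.59 FPKM at 25 weeks. Retnlb, the goblet cell protein RELM-beta, was at 228, 41.2 and 100.4 FPKM and then 734, 302 and 525 FPKM and did not pass (2.30 ± 0.54, adjusted p = 0.0736). Il13, the type 2 cytokine, was listed at 0 in all 3 libraries of 5 weeks and at 2.49, 3 and 0.83 FPKM at 25 weeks, with adjusted p = 0.0607. It passed the filter only through its 25-week levels, so a rise was its only possible direction. It was also listed at 0 in all 3 AKR libraries. Retnlb was at 8.14, 4.75 and 7.71 FPKM in the AKR libraries, below all SAMP libraries of either age. Among 16 tested genes of the prostaglandin and leukotriene pathways, Alox5ap was the 1 call, with a median of 0.62. Its partner Alox5, the 5-lipoxygenase, was at 1.24, 0.31 and 0.81 FPKM and then 5.65, 3.39 and 2.32 FPKM (1.40 ± 0.33, adjusted p = 0.0706), and Ltc4s, the leukotriene C4 synthase, at 0.27, 1.35 and 1.09 FPKM and then 4.78, 10.01 and 2.26 FPKM (1.69 ± 0.42, adjusted p = 0.0896), neither past the threshold. In this list Alox5, Ltc4s, Alox15 and Hpgds passed the filter only through their 25-week levels, so a rise was their only possible direction. Ephx2 passed it only through its 5-week levels and could only fall. The list median includes these genes.

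**Figure D3:**
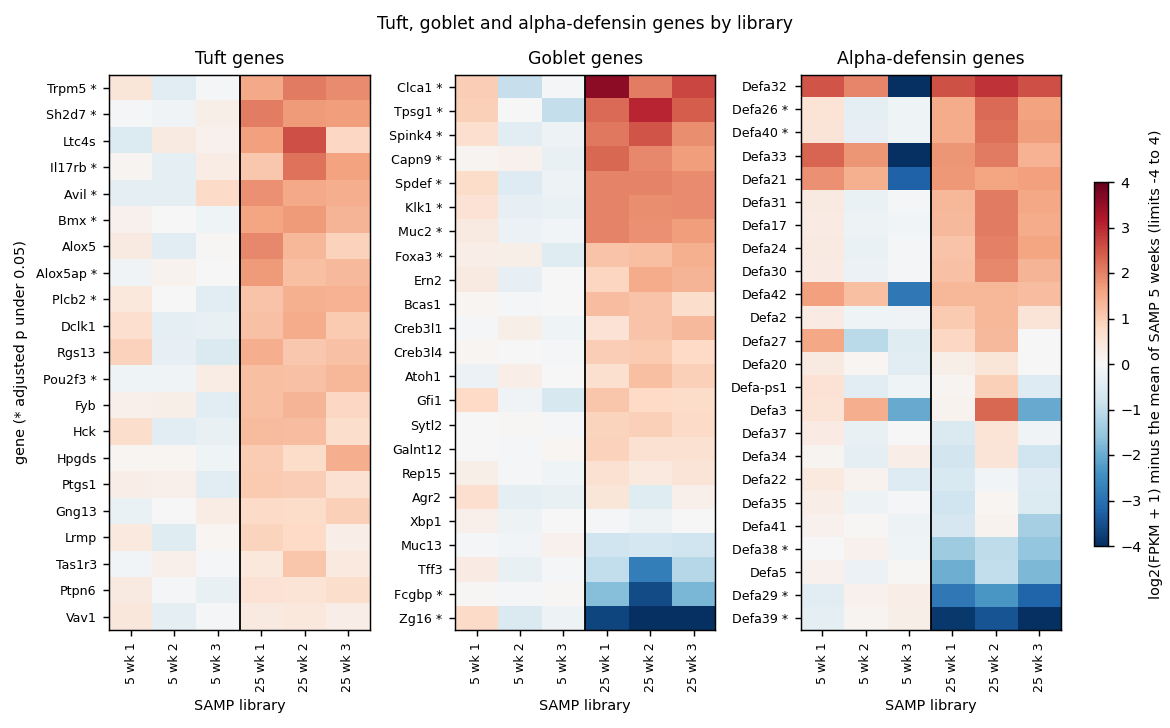
Tested tuft, goblet and alpha-defensin genes (rows) in the 6 SAMP libraries (columns), as log2(FPKM + 1) minus the mean of the 5-week libraries, with colours limited to −4 and 4. Tuft genes were above 0 at 25 weeks in nearly all cells of the map, goblet genes ranged from Clca1 (2.76) to Zg16 (−4.70), and several alpha-defensins were low in 5-week replicate 3.

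Paneth cell products changed unevenly. Ang4, a secreted ribonuclease with antimicrobial activity, rose from 2659, 1262 and 1499 FPKM to 11368, 16447 and 10472 FPKM (2.87 ± 0.41, adjusted p = 0.00802), and its call was lost without 5-week replicate 2 or 3 (adjusted p from 0.0586 to 0.0714). Lyz1, the Paneth cell lysozyme, was at 25857, 24396 and 20238 FPKM and then 8021, 9141 and 5435 FPKM, with no overlap between ages but without passing the test (−1.67 ± 0.43, adjusted p = 0.0968). Mmp7, the protease that activates mouse alpha-defensins, gave −0.35 ± 0.26, adjusted p = 0.544. Of 24 tested Paneth genes other than defensins, 3 rose and none fell, with a median of 0.61, and 2 of the 3 are Pnliprp2 and Clps, which stand in both lists.

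Alpha-defensins, the bactericidal peptides of Paneth granules, were among the most abundant transcripts of the niche. Defa31 reached 32539.8, 55306 and 38649.9 FPKM at 25 weeks from 16628, 10881 and 12405 FPKM at 5 weeks (1.65 ± 0.47, adjusted p = 0.135), and Defa17 gave 1.62 ± 0.47, adjusted p = 0.14, neither past the threshold. Defa39 fell from 951, 1319 and 1441 FPKM to 82.7, 109 and 59.9 FPKM (−3.88 ± 0.31, adjusted p = 0.000207, stable). Defa29 fell from 1975, 3059 and 3265 FPKM to 368, 533 and 291 FPKM (−2.81 ± 0.35, adjusted p = 0.00293, stable). Defa38 fell from 116, 132 and 105 FPKM to 42.9, 57.7 and 39.3 FPKM (−1.33 ± 0.24, adjusted p = 0.0241), a call lost without 5-week replicate 1, 2 or 3 or 25-week replicate 3, after quantile normalization, after rescaling without the 25 most abundant rows or with all 9 libraries in the fit (adjusted p from 0.0579 to 0.143). Defa26 rose from 995, 528 and 615 FPKM to 1912, 3306 and 2113 FPKM (1.79 ± 0.36, adjusted p = 0.0412), a call lost without 5-week replicate 2 or 3 or 25-week replicate 2 or 3 (adjusted p from 0.0706 to 0.195), and Defa40 gave 1.79 ± 0.34, adjusted p = 0.0295, lost without 5-week replicate 2 or 3 or 25-week replicate 2 or 3 (adjusted p from 0.0522 to 0.161). In all, 2 of 24 tested alpha-defensin genes rose and 3 fell, against 0.89% and 0.556% of all tested genes. The AKR libraries had 6956, 3504 and 8367 FPKM of Defa39 and 7571, 3646 and 9450.2 FPKM of Defa38. Alpha-defensin genes are near-identical copies, and reads could be shared between them, so the level of a single copy is uncertain. One 5-week library differed from its group here: replicate 3 had 0 FPKM of Defa32 and Defa33, where replicates 1 and 2 had 124 and 84.4 FPKM of Defa32. These copies were singled out after their values were seen. The group median was 0.47 with all libraries and −0.01 without 5-week replicate 3. Defb1, a beta-defensin of epithelia, rose from 3.25, 2.06 and 0.56 FPKM to 31.2, 45.6 and 31.6 FPKM (3.75 ± 0.35, adjusted p = 0.000514, stable).

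A single crypt-base stem cell gene passed the test. Of 28 tested genes of that list none rose and 1 fell, Aqp4, a water channel that marks crypt-base cells in the mouse. Aqp4 went from 34.5, 31.9 and 36.6 FPKM to 12.9, 8.32 and 9.09 FPKM (−1.69 ± 0.23, adjusted p = 0.00541, stable). Lgr5, the R-spondin receptor that marks cycling stem cells, was at 23.4, 22.4 and 17.4 FPKM and then 9.62, 14.3 and 13.2 FPKM (−0.73 ± 0.23, adjusted p = 0.178). Olfm4, a secreted stem cell marker, was at 1039, 919 and 832 FPKM and then 683, 543 and 565 FPKM (−0.64 ± 0.28, adjusted p = 0.302). Ccnd1, cyclin D1, was at 85.4, 84.6 and 79 FPKM and then 52.3, 27.3 and 42.5 FPKM (−1.06 ± 0.27, adjusted p = 0.0913). In these 3 genes the ages did not overlap, yet none passed the test. Ascl2, the transcription factor of stem cell identity, gave 0.30 ± 0.28, adjusted p = 0.638, and Smoc2 −0.41 ± 0.21, adjusted p = 0.373. The list median of −0.12 equalled that of all genes and changed sign with the scale, between −0.17 and 0.14 under the rescalings. None of the tested genes passed among 17 reserve and regenerative stem cell, 18 Notch, 16 niche Wnt, 7 EGF family or 24 BMP and TGF-beta genes. At an unadjusted p under 0.05, which 15.7% of all genes passed (5.43% higher and 10.3% lower), those lists held 6, 4, 1, 2 and 3 genes.

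Genes of proliferation, ribosomes and respiration had medians below that of all genes, with no gene called when all 6 libraries were used. Among 45 cell cycle genes, none was called, 23 had an unadjusted p under 0.05 in limma, all of them lower, and the median was −0.67. Mki67, the proliferation antigen, was at 119, 111 and 122 FPKM and then 96.8, 53.2 and 77 FPKM (−0.67 ± 0.26, adjusted p = 0.271). All 81 tested ribosomal protein genes had a fold change below 0, with a median of −0.72 and no call, and 38 had an unadjusted p under 0.05. Of 42 respiratory chain genes, 41 lay below 0, with a median of −0.55, no call and 5 at an unadjusted p under 0.05. Of all tested genes, 10.3% were lower at that threshold, and the respiratory chain count was near that share. Over the rescalings these medians were between −0.73 and −0.39 for cell cycle, between −0.77 and −0.21 for ribosomal proteins and between −0.60 and −0.24 for the respiratory chain. Single libraries moved them too: without 25-week replicate 1, 16 cell cycle, 2 ribosomal protein and 3 respiratory chain genes were called and the medians were −0.92, −0.94 and −0.84. Without 25-week replicate 2 the medians were −0.41, −0.48 and −0.30, and without 5-week replicate 1 that of the respiratory chain was −0.37, with no calls in either case. The 25 highest rows held 49.7%, 57.8% and 56.0% of the summed FPKM in the 5-week libraries and 56.7%, 71.8% and 63.2% in the 25-week libraries, and their part in these medians was not tested beyond those rescalings.

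**Figure D4:**
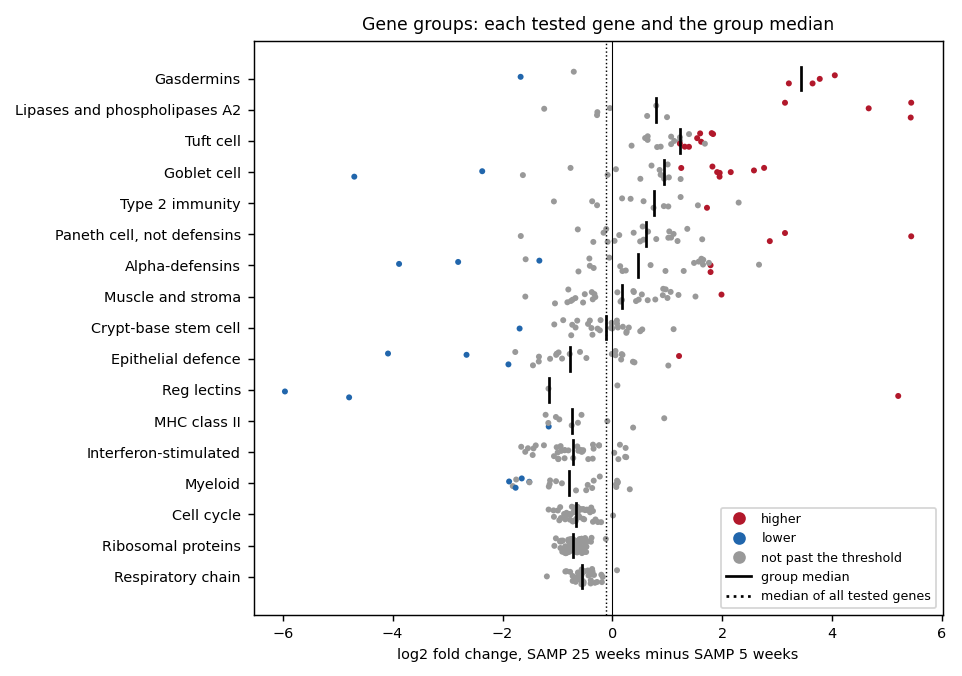
Log2 fold changes, 25 weeks minus 5 weeks (x axis), of each tested gene in 17 groups, with the group median as a black bar and the median of all genes (−0.12) as a dotted line. Group medians run from 3.43 for the 6 gasdermins to −1.16 for the 5 Reg lectins, and the ribosomal protein genes form a narrow band below 0.

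Leaving out 1 library also moved the counts and medians of other groups by over 1.5 times. Of the myeloid genes 2 were called without 5-week replicate 1 and 1 without 5-week replicate 3 or 25-week replicate 3. Of the tuft genes 4 were called without 25-week replicate 2 and 3 without 5-week replicate 2 or 3. Among defence genes the count was 1 without 5-week replicate 1 or 3, and 2 without 5-week replicate 2 or 25-week replicate 3. Without 25-week replicate 1 there were 6 calls among Paneth genes, 5 among cell death genes, 3 among weaning genes and 3 among stem cell genes. Without 5-week replicate 1, the median of the Reg lectins was −0.68 and that of cell death genes −0.15, and without 5-week replicate 2 that of the Reg lectins was −1.76. Without 25-week replicate 2 the median was 0.34 for Paneth genes, 0.37 for the prostaglandin and leukotriene genes and −0.14 for cell death genes. The stem cell median was 0.06 without 25-week replicate 1 and −0.24 without 25-week replicate 3, and the alpha-defensin median was 1.12 without 25-week replicate 3. The muscle and stroma median ran from −0.14 without 5-week replicate 3 to 0.44 without 25-week replicate 3.

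Both metallothioneins that could be tested fell. Mt1, a metallothionein that binds zinc and copper, went from 156, 127 and 116 FPKM to 34.6, 37.9 and 20.1 FPKM (−2.11 ± 0.28, adjusted p = 0.00494, stable). Mt2 went from 128, 113 and 33.1 FPKM to 8.32, 12.5 and 5.05 FPKM (−3.12 ± 0.47, adjusted p = 0.0101), a call lost without 25-week replicate 3 (adjusted p = 0.0591). The AKR libraries had 165, 159.7 and 122 FPKM of Mt1, level with the 5-week SAMP libraries. No zinc transporter among the other 10 tested genes of that list was called.

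Some genes best known as liver products of blood plasma changed by large factors. Serpina10, an inhibitor of coagulation factor Xa, was at 19.7, 23.9 and 22.4 FPKM at 5 weeks and 0.54, 0.27 and 0.64 FPKM at 25 weeks. Its log2 fold change of −3.96 ± 0.22 had the lowest adjusted p of the named genes (adjusted p = 1.71e-05, stable), and the AKR libraries lay between, at 9.22, 12.5 and 14.1 FPKM. Apoh, which binds phospholipids in plasma, rose from 2.11, 0.11 and 0.85 FPKM to 21.9, 49.1 and 46.1 FPKM (4.35 ± 0.40, adjusted p = 0.000514, stable). Cfi, complement factor I, rose from 0.21, 0.18 and 0.1 FPKM to 2.64, 16.8 and 4.57 FPKM (2.61 ± 0.48, adjusted p = 0.0266), a call lost without 5-week replicate 1, 2 or 3 or 25-week replicate 3, or with a pseudocount of 5 (adjusted p from 0.0626 to 0.0958). Serpina3n, a protease inhibitor, gave 2.29 ± 0.46, adjusted p = 0.0406 and was lost without 5-week replicate 2 or 3 or 25-week replicate 2 or 3, or with a pseudocount of 0.1 (adjusted p from 0.0688 to 0.113). Over 17 tested plasma protein genes, 3 rose and 1 fell, with a median of −0.04 that changed sign with the scale, from −0.08 to 0.25.

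The myeloid and MHC class II genes that passed the test all fell. Of 24 tested myeloid genes 4 fell and none rose, with a median of −0.79. Of all tested genes, 0.556% fell. Itgam, the CD11b integrin, fell from 11.5, 11.9 and 16.1 FPKM to 4.79, 3.14 and 3.99 FPKM (−1.51 ± 0.23, adjusted p = 0.0105). Cd14, the lipopolysaccharide co-receptor, fell from 29.4, 16.3 and 25.8 FPKM to 5.95, 6.05 and 8.32 FPKM (−1.65 ± 0.26, adjusted p = 0.0118). Fcer1g, an Fc receptor chain, gave −1.88 ± 0.33, adjusted p = 0.0215, and Lyz2, the macrophage lysozyme, −1.76 ± 0.37, adjusted p = 0.0486. Calls were lost for Itgam without 5-week replicate 3 or 25-week replicate 3 (adjusted p from 0.0587 to 0.0629), for Cd14 without 5-week replicate 3 (adjusted p = 0.0745), for Fcer1g without 5-week replicate 1 or 3 or 25-week replicate 3 (adjusted p from 0.0539 to 0.0967) and for Lyz2 without 5-week replicate 1, 2 or 3 or 25-week replicate 3, with a pseudocount of 0.1, with a mean FPKM of at least 5 or with all 9 libraries in the fit (adjusted p from 0.0511 to 0.175). Macrophage markers summed to between 34.5 and 56.2 FPKM at 5 weeks and between 23.4 and 26.4 FPKM at 25 weeks. Neutrophil markers summed to between 2.45 and 8.21 FPKM and then between 0.73 and 1.51 FPKM. Of 11 tested MHC class II genes only H2-DMa, which loads peptides, was called: it fell from 34.5, 36.6 and 25.2 FPKM to 12.5, 12.6 and 16.2 FPKM (−1.16 ± 0.23, adjusted p = 0.0409), a call lost without 5-week replicate 1, 2 or 3 or 25-week replicate 2 or 3, or after rescaling without the 25 most abundant rows (adjusted p from 0.0737 to 0.182). Cd74, the invariant chain, was at 957, 1072 and 772 FPKM and then 253, 468 and 589.7 FPKM (−1.17 ± 0.35, adjusted p = 0.153). None of 37 interferon-stimulated, 21 MHC class I or 20 lymphocyte genes was called, with medians of −0.71, −0.30 and −0.29. An unadjusted p under 0.05 in limma was reached by 16, 9 and 5 of them, of which 16, 9 and 4 were lower. Of all tested genes, 15.7% reached it in either direction, and 10.3% were lower. Leaving out single libraries moved these list values. Without 5-week replicate 3 the medians were −1.11, −0.57 and −0.61 and 4 interferon-stimulated genes were called. Without 5-week replicate 1 they were −0.47, −0.24 and −0.05, and the lymphocyte median was −0.57 without 5-week replicate 2. Without 25-week replicate 1, 2 interferon-stimulated and 4 MHC class I genes were called, without 25-week replicate 3, 1 interferon-stimulated gene, and 1 lymphocyte gene was called without 5-week replicate 2 or 25-week replicate 2. Ifit1bl1, of the interferon-induced IFIT family, fell from 32.1, 12.1 and 11.1 FPKM to 0.05, 0.19 and 1.63 FPKM (−3.55 ± 0.44, adjusted p = 0.00293, stable).

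Absorptive and endocrine genes showed single changes. Fabp1, the fatty acid binding protein of proximal enterocytes, was at 0.65, 0 and 0 FPKM at 5 weeks and 5.83, 11.9 and 2.48 FPKM at 25 weeks (2.51 ± 0.44, adjusted p = 0.0207), a call lost without 5-week replicate 2 or 3 (adjusted p from 0.0637 to 0.0806). It passed the filter on low values only through its 25-week levels. Fabp1 was the 1 gene of 22 tested villus enterocyte genes that passed the test, and their median was −0.53. Without 5-week replicate 1 the median was −0.21, and without 25-week replicate 2 it was −0.34. The villus enterocyte markers, Fabp1 itself among them, summed to 28.36, 6.48 and 2.56 FPKM at 5 weeks, highest in replicate 1, and to 16.6, 16.9 and 9.32 FPKM at 25 weeks. Their part in these values was not tested. Fabp6, which binds bile acids inside ileal enterocytes, was at 1261, 83.4 and 78.5 FPKM and then 82.2, 26 and 38.3 FPKM (−2.19 ± 0.89, adjusted p = 0.281), with 5-week replicate 1 far above the rest. None of 6 tested bile acid genes passed. Tac1, the substance P precursor of some enteroendocrine cells, fell from 22.9, 11.6 and 21.8 FPKM to 7.22, 6.71 and 5.32 FPKM (−1.37 ± 0.28, adjusted p = 0.0413) as the 1 call among 20 enteroendocrine genes, lost without 5-week replicate 1 or 3 or 25-week replicate 2 or 3 (adjusted p from 0.0789 to 0.172). Among 24 ion transport genes, Car4, a membrane carbonic anhydrase, and Scnn1a, a subunit of the epithelial sodium channel, rose beside Clca1, and Aqp4, described with the stem cell genes, fell. The median of −0.10 changed sign with the scale, from −0.14 to 0.20. Car4 went from 7.01, 3.16 and 3.48 FPKM to 51.3, 13.1 and 21.8 FPKM (2.27 ± 0.43, adjusted p = 0.0318), a call lost without 5-week replicate 2 or 3 or 25-week replicate 3, or with all 9 libraries in the fit (adjusted p from 0.108 to 0.154). Scnn1a went from 6.27, 4.4 and 5.71 FPKM to 12.1, 15.7 and 16.2 FPKM (1.28 ± 0.23, adjusted p = 0.0215), lost without 5-week replicate 2 or 3 or 25-week replicate 2 or 3 (adjusted p from 0.0561 to 0.123).

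Genes that change in the mouse gut around weaning gave no call. All 11 tested had an adjusted p above the threshold, 9 lay below 0, 6 had an unadjusted p under 0.05 in limma, all lower, and the median was −0.69. Of all tested genes, 10.3% were lower at that unadjusted threshold. The list pools genes of the adult gut with genes of the suckling gut, so its sign counts and median describe no single developmental direction. Clec2h, a C-type lectin of the gut epithelium, was at 31.5, 7.46 and 12 FPKM and then 5.78, 0.06 and 0.29 FPKM (−2.86 ± 0.66, adjusted p = 0.0698). Mgam, the brush border maltase-glucoamylase, was at 283, 246 and 292 FPKM and then 169, 81.2 and 113 FPKM (−1.23 ± 0.30, adjusted p = 0.0813).

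In the stroma, Fn1, the matrix protein fibronectin, rose from 12.5, 14.3 and 8.34 FPKM to 40.3, 63.5 and 44.3 FPKM (1.99 ± 0.27, adjusted p = 0.00536, stable). It was the 1 call among 31 muscle and stroma genes, whose median was 0.18. Smooth muscle markers summed to between 29.5 and 82.6 FPKM at 5 weeks and between 95.2 and 115.4 FPKM at 25 weeks, and fibroblast markers to between 111.42 and 243.19 FPKM and then between 84.9 and 128.2 FPKM. Their part in the change of Fn1 was not tested. Metabolic lists held single calls. Me1, the malic enzyme that makes NADPH for fat synthesis, gave 2.29 ± 0.28, adjusted p = 0.00259 (stable). Ddit3, the stress-induced factor CHOP, gave 1.29 ± 0.25, adjusted p = 0.036 and was lost without 5-week replicate 2 or 3 or 25-week replicate 3 (adjusted p from 0.147 to 0.151). Egln3, an oxygen-sensing prolyl hydroxylase, gave 2.10 ± 0.35, adjusted p = 0.0165 and was lost without 5-week replicate 3 or 25-week replicate 3, or with all 9 libraries in the fit (adjusted p from 0.0576 to 0.116). No gene was called among 18 tight junction, 9 endothelial and nerve, 24 autophagy, 29 xenobiotic and retinoid or 22 dissection stress genes. At an unadjusted p under 0.05 in limma these lists held 3, 2, 1, 7 and 4 genes, against 15.7% of all tested genes.

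Other genes with large changes belonged to no group described above. Capn13, a calpain protease, rose from 6.58, 5.24 and 5.19 FPKM to 109, 43.1 and 42.2 FPKM (3.16 ± 0.34, adjusted p = 0.00119, stable). Sprr2a1, of the small proline-rich family, rose from 20.8, 1.25 and 4.96 FPKM to 102, 54.5 and 50.3 FPKM (3.32 ± 0.65, adjusted p = 0.036), lost without 5-week replicate 2 or 3 or 25-week replicate 2 or 3, with a pseudocount of 0.1, with all 9 libraries in the fit or with robust moderation (adjusted p from 0.0576 to 0.25). Trp53i11, named as a p53-inducible gene, fell from 33, 45 and 43 FPKM to 6.83, 7.05 and 10.2 FPKM (−2.20 ± 0.24, adjusted p = 0.00119, stable). Hbb-bs, an adult beta globin, fell from 5.86, 10.7 and 7.24 FPKM to 2.38, 0 and 0.21 FPKM (−2.45 ± 0.42, adjusted p = 0.0207), lost without 5-week replicate 2 or 3 or 25-week replicate 3, or with a pseudocount of 0.1 (adjusted p from 0.069 to 0.0967).

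**Figure D5:**
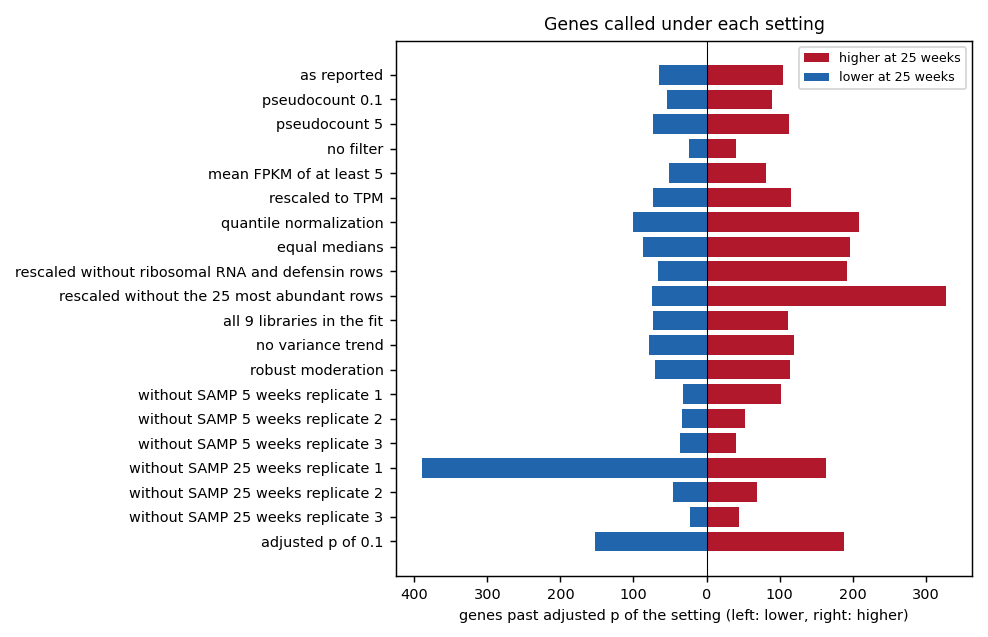
Number of genes called higher (right) and lower (left) at 25 weeks as reported and under each alternative other than library weights (y axis). Leaving out 25-week replicate 1 gave 164 higher and 389 lower, and leaving out 25-week replicate 3 gave 45 higher and 23 lower.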

How the data were processed

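RNA of laser-captured ileal stem cell niche was measured in 9 libraries, grouped by the labelled strain and age, with replicates numbered by sample order. One table of FPKM with 18220 rows was deposited by the authors, the unit being given per the file headers. Trimmomatic, STAR, HTSeq and DESeq2 and the GRCm38 genome are named in the submitters' processing notes, with no versions or roles. The sources used here do not say whether counting used strand. The labels also mention cultured crypts, whose relation to the captured tissue is not stated. Gene names came from RefSeq (GRCm38.p6), and 50 rows stayed unnamed. FPKM are not counts: 76.4% to 83.0% of low values in the 6 libraries lay within 0.2 of a whole read, where 40% would do so at random. The depth of each library was chosen to make that share largest. The 40% holds for a depth fixed beforehand, so the comparison favours the estimate. Whole reads were therefore not recovered, and depths are estimates.

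Values were taken as log2(FPKM + 1), which understates changes of low genes. Genes averaging at least 1 FPKM in the 6 libraries, 11690 in all, were tested with limma 3.58.1 in R 4.3.3, with a variance trend and Benjamini-Hochberg adjustment at 0.05 over all of them. The fit had 4 residual degrees of freedom and was tested on simulated data. The p-values measure the spread between these 3 libraries a group. Named genes were the 15 called genes with the largest fold change in each direction that had official symbols and no overlap, up to 4 called genes per direction and 4 others with the highest mean from each list, and a fixed set. Not every gene taken by the rule is printed. The members and lists were chosen with earlier results of these data known, and lists are described by counts and medians. Figures used Python 3.11.15 and matplotlib 3.10.9. Mitochondrially encoded genes were not analysed here.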

Additional observations from a re-analysis of the deposited data

How the results depend on the processing

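The 169 called genes (104 higher, 65 lower) became 64 (40 and 24) without a filter on low values, 309 (209 and 100) after quantile normalization, 283 (196 higher) with equal medians, 259 (192 higher) after rescaling without ribosomal RNA and defensin rows, 2330 (814 and 1516) with library weights and 340 (188 and 152) at an adjusted p of 0.1. Rescaling without the 25 most abundant rows, chosen after seeing the data, gave 402 (328 higher). The library weights gave 25-week replicate 3 a weight of 6.50, against 0.35 and 0.43 for the other 25-week libraries. Leaving out 1 library gave between 68 and 553 calls, between 40 and 164 higher and between 23 and 389 lower. The fewest came without 25-week replicate 3 and the most without 25-week replicate 1, which gave 29.7% higher, and of the 169 genes between 61 (without 5-week replicate 3) and 163 (without 25-week replicate 1) were still called. The remaining settings, pseudocounts of 0.1 and 5, a mean of at least 5 FPKM, TPM, all 9 libraries, no variance trend and robust moderation, gave between 133 and 198. Over the named genes, 209 values were no longer past the threshold and 170 newly past it, 72 of them with library weights. No called gene changed sign, which the lack of overlap between ages fixed for all settings but the rescalings. The cause of these differences was not tested. No paired analysis was possible because the labels give no replicate numbers. With 3 libraries a group, single differences below the spread were not detectable, and depth is known only as an estimate.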

Other observations

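The genes in this section were chosen after their values were seen, and no test beyond the fit over all genes was run on them. The histone genes taken here by symbol are mainly replication-dependent and encode the core and linker histones made in S phase. H1f0, a linker histone gene outside that class, is included. Of 58 tested histone genes, 8 were lower and none higher, against 0.556% lower and 0.89% higher among all tested genes. The median log2 fold change of the histone genes was −0.80, and it was between −0.86 and −0.51 under the rescalings. H3c4 had 19.2, 20.9 and 24.5 FPKM at 5 weeks and 3.73, 3.99 and 3.78 FPKM at 25 weeks (−2.22 ± 0.21, adjusted p = 0.000514), a call that no alternative ended. H2ac19 had 13.9, 11.8 and 16.9 FPKM and then 4.29, 0 and 1.49 FPKM (−2.67 ± 0.48, adjusted p = 0.0234), lost without 5-week replicate 1, 2 or 3 or 25-week replicate 3, or with a pseudocount of 0.1 (adjusted p from 0.0525 to 0.12). Histone copies share sequence, so the level of a single copy is uncertain. Without 25-week replicate 1 the number of called histone genes was 32, and without 5-week replicate 2 or 3 it was 1, so the count rests on single libraries.

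Single genes outside the lists also passed the test. A4gnt, which caps mucin glycans with N-acetylglucosamine in the stomach, rose from 10.7, 6.85 and 4.74 FPKM to 29.2, 31 and 29 FPKM (1.93 ± 0.27, adjusted p = 0.00669). Pck1, the entry enzyme of gluconeogenesis, rose from 0.78, 0.57 and 0.53 FPKM to 5.93, 3.67 and 6.02 FPKM (1.91 ± 0.26, adjusted p = 0.00554). Neither call ended under an alternative. Cela1, a pancreatic-type elastase, rose from 5.61, 4.4 and 4.93 FPKM to 19.9, 12.4 and 19.5 FPKM (1.59 ± 0.24, adjusted p = 0.01), a call lost in 4 of 19 alternatives, among them without 25-week replicate 3 (adjusted p = 0.0591). Slc40a1, the iron exporter ferroportin, fell from 12.1, 5.78 and 11.3 FPKM to 1.78, 1.58 and 2.12 FPKM (−1.87 ± 0.28, adjusted p = 0.00968), a call lost in 3 of 19 but not without 25-week replicate 3 (adjusted p = 0.0439). A row that the annotation used here does not name, gene number 13219, had the largest fold change of all, a fall of 7.70 on the log2 scale.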
